A study of Homo sapiens with 6 samples.

Results

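The liver X receptors, LXRα and LXRβ, and the genes they drive for moving cholesterol out of cells were examined in human pluripotent stem cells (hPSCs) kept in simulated microgravity (sµg) or in normal gravity (1g). The group was set by gene name and holds 7 genes out of 60719 in the gene tables: the receptor genes *NR1H3* (LXRα) and *NR1H2* (LXRβ) and the target genes *ABCA1*, *ABCG1*, *APOE*, *MYLIP* and *LPCAT3*. All 7 were matched by symbol, and all 7 passed the filter on low counts that left 16763 genes for testing. The hPSCs were H1 and H9, established lines derived from human embryos. Every library is labelled with both lines, and its own line is not stated. There were 3 libraries of cells in 1g and 3 of cells in sµg, the latter grown attached to slides in a chamber full of medium that was spun on a 2-D clinostat, so that the pull of gravity was averaged out over each turn. The 1g cells were grown without rotation in the same type of slide, and the labels name no drug or genetic change for either condition. Libraries held 20876900 to 28506800 expected counts in 1g and 19971100 to 20588200 in sµg. Of the sµg libraries, replicate 3 stood apart for *APOE*, *NR1H2* and *MYLIP* and had the lowest share of mitochondrial counts (4.11% against 4.69% and 4.76%), so values without it are given for these genes. That library was picked from these same values, so p-values and counts of calls without it are descriptions and not tests. Nothing in the labels ties a replicate to a culture of its own, so that p-values here cover the spread among libraries and that spread may be technical.

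LXRα and LXRβ are nuclear receptors that sit on DNA together with a retinoid X receptor (RXR) and are switched on by oxysterols, which are oxidised forms of cholesterol that build up when a cell holds too much of it. Active LXR raises the transporters that hand cholesterol to lipoproteins outside the cell, and it slows cholesterol uptake. The opposing system, driven by the transcription factor SREBP2, turns on cholesterol synthesis and uptake when sterols run low.

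LXR with RXR binds a pair of AGGTCA units in the same direction, spaced by 4 bases and called a DR4 element. The promoter windows of RefSeq (build GRCh38.p14, 250 bases before to 50 bases after a transcription start) were searched on both strands for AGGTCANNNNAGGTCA with up to 3 mismatches in the 12 fixed bases. Such a match was in 18.6% of all 35116 windows, and among the 6 member genes with a window (11 windows, *ABCG1* not among them) in *ABCA1* alone. The *ABCA1* match has 2 mismatches, and 2.34% of all windows hold a match that close. The sequence is shown because *ABCA1* is the member whose level differed most between the conditions. It is the 250 bases before the *ABCA1* start, chr9:104928156-104928405 on the minus strand, written 5′ to 3′ along the gene with the fixed bases of the match in capitals. The match lies 69 to 54 bases before the start and reads as a DR4 on the strand opposite to the gene.

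ABCA1 upstream: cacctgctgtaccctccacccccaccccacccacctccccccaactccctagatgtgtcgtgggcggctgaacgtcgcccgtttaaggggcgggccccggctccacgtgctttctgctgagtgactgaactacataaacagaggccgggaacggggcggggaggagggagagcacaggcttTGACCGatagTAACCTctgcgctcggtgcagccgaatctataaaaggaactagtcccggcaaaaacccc

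The closest matches before the starts of 3 other members are set against it below, each on the strand that holds the match and with the repeat units in capitals. Those of *MYLIP*, *LPCAT3* and *NR1H2* have 4 mismatches, a distance that 72.5% of all windows reach. Matches just as close, not shown, lie before starts of *APOE* and *NR1H3* and again before that of *NR1H2*.
ABCA1: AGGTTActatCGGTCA
MYLIP: CGGCCAgggaAACTCA
LPCAT3: AGGTAGgaagAGGGCG
NR1H2: GGCTCAgagaAGCGCA
The *ABCA1* window also holds CACGTG, the core of an E-box, as do 7.26% of all windows, and it has 23 CpG pairs where the median window has 14. These are matches of letters, and binding was not measured.

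Of the 7 genes, 1 fell and 0 rose in sµg (edgeR quasi-likelihood test, Benjamini-Hochberg adjusted p under 0.05). The one that fell was *ABCA1*, to 0.51 of its 1g level. Over all 16763 genes, 33.7% were called, 18.2% as lower and 15.5% as higher, and the 1 call among 7 genes was 14.3%. Without sµg replicate 3, 4 of the 7 were lower (57.1%), where 36.3% of 17045 genes were called and 18.9% were lower. The library left out there was picked after the members' values were seen. At an unadjusted p under 0.05 the members counted 0 higher and 2 lower (*ABCA1* and *NR1H2*), and at least 7125 of the 16763 genes had such a p. DESeq2 gave 0 higher and 1 lower, where it called 23.5% of 16500 genes and 12.9% as lower. The log2 fold change was negative for 6 of the 7, with a median of −0.13 against 0.0057 over all genes tested. The values of the 3 sµg libraries did not overlap those of the 3 1g libraries for 2 of the 7, *ABCA1* and *ABCG1*, and for 45.5% of all genes, in CPM (counts scaled to library size after TMM normalization). In TPM, a scale explained below, this held for *ABCA1*, *APOE* and *NR1H2*. The share of all genes was not computed in TPM, so their number is not read as a result about the members. In bulk RNA, fewer cells of a kind and less RNA per cell cannot be told apart.

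**Figure D1:**
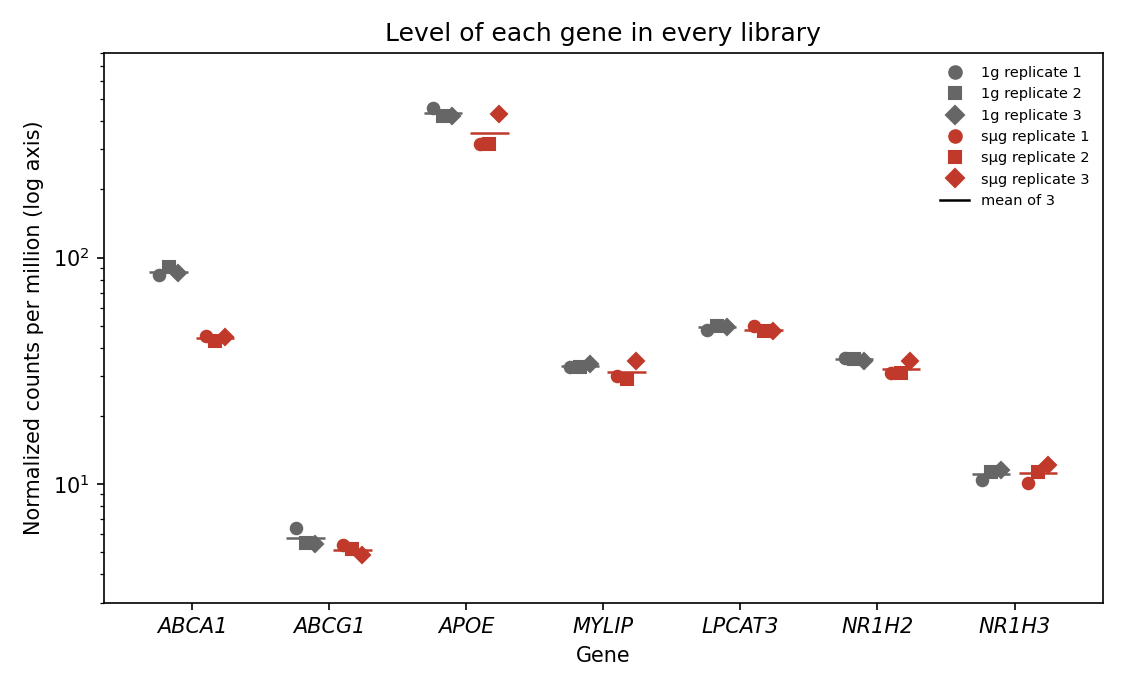
Level of the 7 genes (x axis) in each of the 6 libraries, in normalized CPM on a log axis, with grey symbols for 1g, red symbols for sµg, one symbol shape per replicate and a line at each mean of 3. ABCA1 lay between 83.7 and 90.9 CPM in 1g and between 42.7 and 45.1 CPM in sµg, while APOE, MYLIP, LPCAT3, NR1H2 and NR1H3 overlapped between the conditions.

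Per unit of transcript length, the group spanned a wide range. Mean levels over the 6 libraries, in TPM (counts over effective length, scaled to a constant sum), were 602.7 for *APOE*, 34.2 for *LPCAT3*, 29.4 for *NR1H2*, 14.8 for *MYLIP*, 14.6 for *NR1H3*, 8.57 for *ABCA1* and 2.63 for *ABCG1*. *MYLIP* and *NR1H3* overlapped in both conditions, and every other pair of neighbours in this order was separate within each condition. LXRβ was thus the more abundant receptor mRNA in every library, with *NR1H2* at 26.2 to 31.1 TPM and *NR1H3* at 12.9 to 15.9 TPM.

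The receptor genes did not pass the test. *NR1H3* (chr11:47248300-47269033, plus strand), which encodes the LXRα of liver, fat and macrophages, had 10.4, 11.3 and 11.5 CPM in the 1g libraries 1, 2 and 3 and 10.1, 11.3 and 12.2 CPM in the sµg libraries. The conditions overlapped fully, at 11.1 ± 0.589 (SD, n = 3) and 11.2 ± 1.06 CPM (SD, n = 3). The log2 fold change, sµg minus 1g, was 0.02 (standard error 0.0915, 95% interval −0.17 to 0.21, edgeR adjusted p = 0.900).

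*NR1H2* (chr19:50329653-50383388, plus strand), which encodes the LXRβ found in most tissues, had 36.1, 35.5 and 34.9 CPM in 1g and 31.0, 31.0 and 35.1 CPM in sµg. The sµg libraries 1 and 2 lay below every 1g library and sµg library 3 lay among them. In TPM the conditions did not overlap, at 29.75 to 31.11 in 1g and 26.23 to 29.62 in sµg. Its log2 fold change of −0.13 (standard error 0.0573, 95% interval −0.26 to −0.01) had an edgeR p of 0.0303 that rose to 0.0794 after adjustment. Without sµg replicate 3 it was −0.19 (edgeR adjusted p = 0.00510). *NR1H3* overlaps *ACP2* (20.4 TPM) on the opposite strand, and RSEM at its default settings does not use the strand.

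Of 6 genes listed for RXR partners, corepressors and coactivators, 5 were tested and none passed in either direction by edgeR or DESeq2 (0 in each), with 2 higher and 0 lower at an unadjusted p under 0.05. Their median log2 fold change was 0.03 against 0.0057 over all genes tested, of which 33.7% were called. *RXRA*, the main LXR partner in many tissues, had 37.8, 37.3 and 41.2 CPM in 1g and 37.7, 36.3 and 34.5 CPM in sµg (log2 fold change −0.10, edgeR adjusted p = 0.18). *RXRB*, another partner, stood at 17.7 CPM in 1g and 20.1 CPM in sµg on average (log2 fold change 0.18, edgeR adjusted p = 0.0822). *NCOA6*, a coactivator, stood at 18.4 and 21.0 CPM (log2 fold change 0.19, edgeR adjusted p = 0.0652). *NCOR1*, a corepressor that holds unliganded receptors silent, stood at 142.5 and 145.5 CPM (log2 fold change 0.03, edgeR adjusted p = 0.628).

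*ABCA1* (chr9:104781006-104928155, minus strand) encodes the membrane transporter that loads cholesterol and phospholipid onto lipid-poor apolipoprotein A-I, the first step in making high-density lipoprotein (HDL). Its level was 83.7, 90.9 and 85.6 CPM in the 1g libraries and 45.1, 42.7 and 44.7 CPM in the sµg libraries. Every sµg library lay below every 1g library, and the gap between the conditions was many times the spread within either, at 86.7 ± 3.72 (SD, n = 3) against 44.2 ± 1.25 CPM (SD, n = 3). The log2 fold change was −0.97 (standard error 0.0466, 95% interval −1.07 to −0.87, edgeR adjusted p = 1.72e-11), a change of −49.0%, from 6177 expected counts in 1g and 2717 in sµg. On the TPM scale, the means were 11.2 in 1g and 5.90 in sµg. Among the 16763 genes it ranked 518 from the largest fall by log2 fold change and 49 by p.

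The fall kept its direction and its call in all 17 alternatives, with a log2 fold change between −0.998 and −0.826 and an adjusted p of at most 3.99e-04. In the same libraries, 12 markers of trophectoderm and amnion, cells that hPSCs can turn into, summed to 95.9 to 105.7 TPM in 1g and 49.0 to 54.0 TPM in sµg. The sum does not stand for each marker, as log2 fold changes were −0.62 for *KRT7* and −4.75 for *GATA3*. Their median was −2.26 over the 10 markers tested. The part of such cells in the *ABCA1* value was not tested.

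At the level of transcripts, 85 are listed for the 7 genes, 66 had counts and 23 were tested. Of these, 0 were higher and 1 was lower, beside 1.76% called among 53807 transcripts. The one that fell was ENST00000374736.8, a protein-coding transcript of *ABCA1* with 86.0% of the gene's counts, at 73.2, 82.0 and 77.4 CPM in 1g and 34.8, 38.8 and 34.9 CPM in sµg (log2 fold change −1.10, standard error 0.0680, edgeR adjusted p = 0.00329). The other tested *ABCA1* transcript, ENST00000678995.1, with 13.8% of the counts, had 11.7, 9.66 and 9.15 CPM in 1g and 10.6, 4.21 and 9.42 CPM in sµg, so the conditions overlapped (log2 fold change −0.33, standard error 0.349, edgeR adjusted p = 0.817). Whether the changes of these transcripts differed from each other was not tested. DESeq2, which tested 83014 transcripts, called 3 of the members' transcripts lower. The edgeR fit with the replicate number as a block called 0 of them. The shares of all transcripts called in these fits are not given here, so the counts are not read as a result about the members.

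*ABCG1* (chr21:42199689-42297244, plus strand), the transporter that passes cholesterol to HDL that already carries lipid, had 6.38, 5.48 and 5.42 CPM in 1g and 5.38, 5.17 and 4.86 CPM in sµg. All 3 sµg values lay below the 1g values, but the nearest ones were 5.38 and 5.42 CPM. In TPM the conditions overlapped, at 2.52 to 3.19 in 1g and 2.26 to 2.57 in sµg. The log2 fold change was −0.17 (standard error 0.121, 95% interval −0.43 to 0.08, edgeR adjusted p = 0.302). It was the member with the fewest counts, 416 in 1g and 316 in sµg, and the interval does not reach the change of *ABCA1*.

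*APOE* (chr19:44905791-44909393, plus strand), the lipid carrier that cells secrete and that binds to lipoprotein receptors, was by far the most abundant member, with 31253 expected counts in 1g. It had 457.9, 423.4 and 423.4 CPM in 1g and 317.9, 317.7 and 431.7 CPM in sµg. The sµg libraries 1 and 2 lay well below the 1g range while sµg library 3 lay inside it, so that the means were 434.9 ± 19.9 (SD, n = 3) and 355.8 ± 65.7 CPM (SD, n = 3). The log2 fold change of −0.29 (standard error 0.147, 95% interval −0.69 to 0.11) did not pass the test (edgeR adjusted p = 0.221). Without sµg replicate 3 it was −0.45 (edgeR adjusted p = 1.26e-09). That library was picked from these same values, so this p-value is a description and not a test. On the TPM scale the conditions did not overlap, at 642.5 to 687.3 TPM in 1g and 502.2 to 630.7 TPM in sµg, and limma on log2(TPM + 1) called it lower (log2 fold change −0.28, adjusted p = 0.0478).

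*MYLIP* (chr6:16129086-16148248, plus strand) encodes the ubiquitin ligase, also called IDOL, that marks lipoprotein receptors for destruction and so reduces cholesterol uptake. It had 33.0, 32.9 and 34.1 CPM in 1g and 30.1, 29.2 and 34.9 CPM in sµg, again with sµg library 3 above the other two and above the 1g range. The log2 fold change was −0.09 (standard error 0.0630, 95% interval −0.22 to 0.05, edgeR adjusted p = 0.319). Without sµg replicate 3 it was −0.16 (edgeR adjusted p = 0.0200).

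*LPCAT3* (chr12:6976185-7018477, minus strand), which encodes the acyltransferase that puts polyunsaturated chains into membrane phospholipids, had 48.0, 50.05 and 49.6 CPM in 1g and 49.8, 47.3 and 47.3 CPM in sµg. The conditions overlapped, and the log2 fold change of −0.03 (standard error 0.0467, 95% interval −0.13 to 0.07, edgeR adjusted p = 0.648) had the narrowest interval around 0 of the group. The gene overlaps *EMG1* (60.2 TPM) on the opposite strand.

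**Figure D2:**
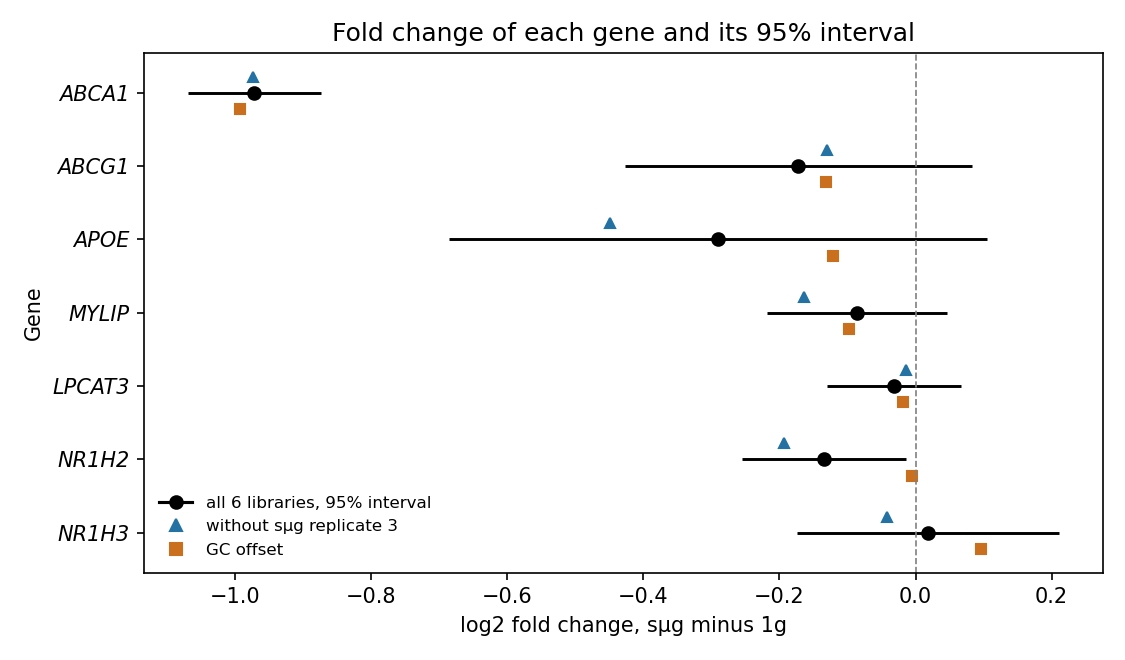
Log2 fold change, sµg minus 1g, of the 7 genes (y axis), with circles and bars for the estimate and 95% interval from all 6 libraries, triangles for the estimate without sµg replicate 3 and squares for that with an offset for GC content. ABCA1 stayed between −0.99 and −0.97 in the 3 estimates, while APOE moved from −0.29 to −0.45 or −0.12 and the other 5 genes lay between −0.19 and 0.10.

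The change of *ABCA1* was set against that of each other member within the same libraries. The log2 ratio of the other gene to *ABCA1*, in CPM, was higher in every sµg library than in every 1g library for all 6 pairs. The difference of the mean log2 ratio, sµg minus 1g, was between 0.67 (*APOE*) and 0.99 (*NR1H3*). An exact permutation test (two-sided) gave p = 0.1 for each pair, which is the smallest value that 3 against 3 libraries can give, and 0.1 after adjustment over the 6 pairs. The 6 ratios share the *ABCA1* values and are not independent. *ABCA1* was taken as the divisor after its fall was seen. For genes that changed less, a higher ratio in sµg followed from that fall, so the test adds nothing to it.

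The libraries differed by the GC content of the genes, and this moved with several of the values above. For the 510 genes over 65% GC, the median log2 deviation from the mean of the 6 libraries was 0.16, 0.03 and 0.04 in the 1g libraries and −0.10, −0.13 and 0.01 in the sµg libraries, and for the 3674 genes under 42% GC it was −0.05 to −0.03 in 1g and 0.03 to 0.05 in sµg. *APOE* has a GC content of 68.9%, above 99.6% of genes, and *NR1H2* one of 63.3%, above 94.0% of genes. Both were higher in sµg library 3 than in the other sµg libraries, as was the median of the GC-rich genes. *MYLIP* was too, with a GC content of 46.8%. With an offset for GC content in each library, the log2 fold change was −0.12 for *APOE* (edgeR adjusted p = 0.360) and −0.01 for *NR1H2* (edgeR adjusted p = 0.95). *ABCA1*, with a GC content of 45.4%, stood at −0.99 under the same offset. The part of GC content in the *APOE* and *NR1H2* values was not tested further.

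**Figure D3:**
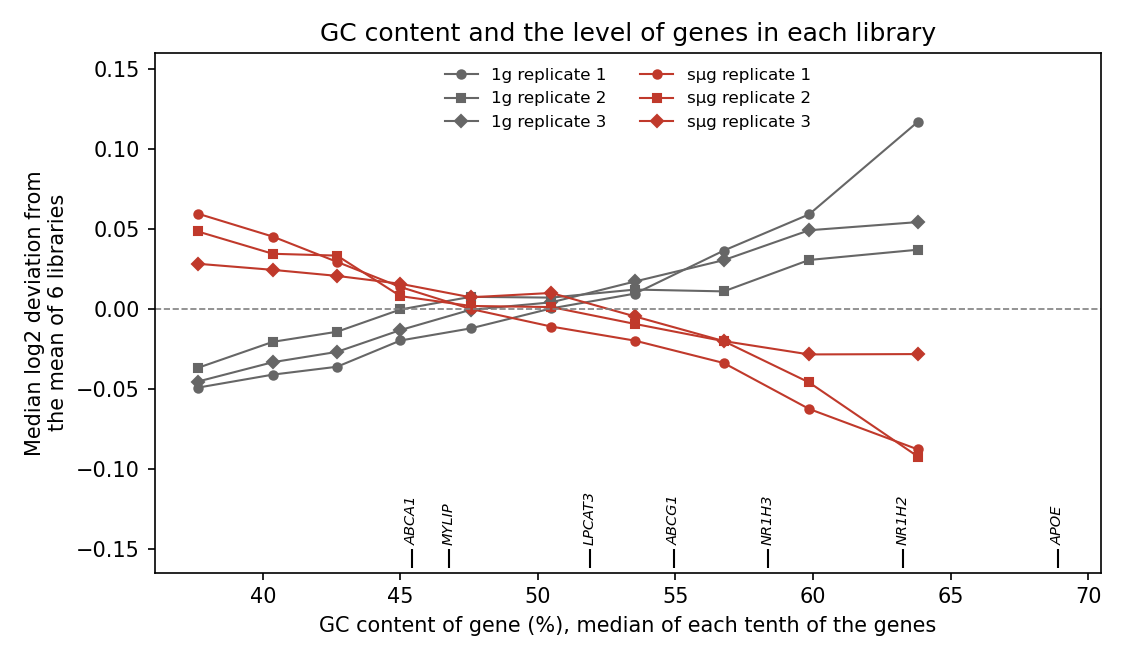
Median log2 deviation of genes from the mean of the 6 libraries (y axis) in each decile of the genes by GC content in percent (x axis), with one line per library, grey for 1g and red for sµg; ticks at the foot mark the GC content of the 7 genes. In the decile with the highest GC content the 1g libraries lay at 0.04 to 0.12 and the sµg libraries at −0.09 to −0.03, and the conditions crossed between the deciles at 45.0% and 53.5% GC.

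Other genes driven by LXR did not move in one direction. Of 18 listed beside the members, 10 were tested, 1 was higher and 3 were lower (DESeq2 2 and 3), beside 15.5% and 18.2% of all genes. Their median log2 fold change was 0.09. Among those that fell, *SREBF1*, which encodes the SREBP1 factors that drive fatty acid synthesis, had 116.7, 105.5 and 106.2 CPM in 1g and 86.4, 89.8 and 88.9 CPM in sµg (log2 fold change −0.31, standard error 0.0445, edgeR adjusted p = 2.79e-05). *MLXIPL*, the gene of the glucose-sensing factor ChREBP, fell from 7.42 to 4.73 CPM (log2 fold change −0.65, edgeR adjusted p = 3.31e-04). *PLTP*, which encodes the phospholipid transfer protein of plasma lipoproteins, fell from 104.3 to 91.9 CPM (log2 fold change −0.18, edgeR adjusted p = 0.00145), a call that held in 13 of 17 alternatives. With the GC offset and replicate block, *SREBF1* stood at −0.18 and *PLTP* at −0.09. In the other direction, *SCD*, a fatty acid desaturase that SREBP1 also drives, rose from 1445 to 1669 CPM (log2 fold change 0.21, edgeR adjusted p = 5.84e-04). *CYP7A1*, the bile acid enzyme of liver, had 0 counts in every library. *SREBF1*, *MLXIPL* and *SCD* kept their call in all 17.

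The enzymes that make and remove oxysterols, the ligands of LXR, were at low levels. All 7 listed were tested, 0 were higher and 3 were lower, beside 15.5% and 18.2% of all genes, with a median log2 fold change of −0.65. *CH25H*, which makes 25-hydroxycholesterol, had 2.23, 1.79 and 2.11 CPM in 1g and 0.721, 0.894 and 0.389 CPM in sµg (log2 fold change −1.62, standard error 0.280, edgeR adjusted p = 1.99e-04). In limma on log2(TPM + 1), a scale that shrinks the change of low genes, its log2 fold change was −0.80. The gene had 63, 37 and 48 counts in the 1g libraries and only 15, 18 and 8 in the sµg libraries. *CYP27A1*, which makes 27-hydroxycholesterol in mitochondria, had 5.496, 4.41 and 4.32 CPM in 1g and 2.45, 2.83 and 2.87 CPM in sµg (log2 fold change −0.81, standard error 0.152, edgeR adjusted p = 4.22e-04). *CYP11A1*, which cuts the side chain of cholesterol at the start of steroid synthesis, fell from 4.46 to 2.16 CPM (log2 fold change −1.05, edgeR adjusted p = 9.08e-05). *CYP7B1*, which breaks oxysterols down, stood at 1.55 CPM in 1g and 2.20 CPM in sµg (log2 fold change 0.51, edgeR adjusted p = 0.0601). At an unadjusted p under 0.05 the list had 1 gene higher, and DESeq2 gave 0 higher. Oxysterols themselves were not measured.

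Genes that carry sterols within the cell and store them as esters held the largest change among the lists of sterol genes. Of 16 listed, 15 were tested, 1 was higher and 5 were lower (DESeq2 1 and 3), beside 15.5% and 18.2% of all genes. The median log2 fold change was −0.05. *NCEH1*, which encodes a hydrolase that frees cholesterol from its esters, had 21.4, 21.0 and 22.3 CPM in 1g and 4.71, 5.76 and 5.05 CPM in sµg. The conditions were far apart (log2 fold change −2.06, standard error 0.0891, edgeR adjusted p = 3.56e-12), and the log2 fold change was −1.33 in limma on log2(TPM + 1). *NPC2*, which carries cholesterol out of lysosomes, fell from 115 to 95.5 CPM (log2 fold change −0.26, edgeR adjusted p = 3.85e-05), and *SCARB1*, the HDL receptor, fell from 52.6 to 43.2 CPM (log2 fold change −0.29, edgeR adjusted p = 3.27e-04). The gene that rose was *STARD4*, a carrier of free cholesterol and a target of SREBP2, from 55.3 to 70.8 CPM (log2 fold change 0.36, edgeR adjusted p = 5.27e-06). The genes named here as rising or falling kept their call in all 17 alternatives.

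The SREBP2 side of sterol balance was described for the same libraries. Of 20 genes of sterol synthesis, all tested, 16 were higher and 2 were lower (DESeq2 14 and 1), beside 15.5% and 18.2% of all genes. The median log2 fold change was 0.24. *ACAT2*, which joins acetyl-CoA units at the start of the pathway, rose from 213 to 295 CPM (log2 fold change 0.47, edgeR adjusted p = 7.99e-09). *HMGCS1*, the HMG-CoA synthase, rose from 456 to 609 CPM (log2 fold change 0.42, edgeR adjusted p = 3.62e-08), and *IDI1*, which interconverts the isoprene building blocks, from 96.1 to 134 CPM (log2 fold change 0.48, edgeR adjusted p = 1.23e-07). *SC5D*, a desaturase late in the pathway, fell from 199 to 153 CPM (log2 fold change −0.38, edgeR adjusted p = 3.00e-07). Among 9 regulators of SREBP2, 3 were higher and 0 were lower, while DESeq2 called 1 higher and 0 lower, and 1 was lower at an unadjusted p under 0.05. Of these, *INSIG1*, which holds SREBP2 back and is itself its target, had 78.0, 82.1 and 80.3 CPM in 1g and 95.5, 99.1 and 95.2 CPM in sµg (log2 fold change 0.27, standard error 0.0403, edgeR adjusted p = 4.14e-05). *MBTPS2*, a protease that releases SREBP2, had a log2 fold change of 0.30 (edgeR adjusted p = 0.00914) and *INSIG2* one of 0.26 (edgeR adjusted p = 0.0468), and these calls held in 11 and 4 of 17 alternatives.

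Genes of lipoprotein uptake, among them receptors that MYLIP removes, went in both directions. Of 5 listed, 1 was higher and 2 were lower, beside 15.5% and 18.2% of all genes, with a median log2 fold change of −0.15. *VLDLR*, a receptor that binds APOE and that MYLIP can mark, had 69.8, 73.9 and 71.9 CPM in 1g and 50.6, 53.3 and 54.6 CPM in sµg (log2 fold change −0.44, standard error 0.0455, edgeR adjusted p = 5.35e-07), called in all 17 alternatives. *LRP8*, another receptor that MYLIP can mark, rose from 93.7 to 106 CPM (log2 fold change 0.17, edgeR adjusted p = 0.00338), and *LRP1*, a broad receptor for APOE, fell from 352 to 307 CPM (log2 fold change −0.20, edgeR adjusted p = 0.00762). These calls held in 14 and 12 of 17 alternatives, and *LRP1* stood at −0.09 in limma on log2(TPM + 1). *LRPAP1*, a chaperone of these receptors, stood at 88.2 and 81.5 CPM (log2 fold change −0.11, edgeR adjusted p = 0.0842).

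Of 6 other lysophospholipid acyltransferases listed beside LPCAT3, 0 were higher and 1 was lower, beside 15.5% and 18.2% of all genes. This was *LPCAT1*, from 361 to 321 CPM (log2 fold change −0.17, edgeR adjusted p = 0.00210), while *MBOAT7*, *LPCAT2* and *LPCAT4* had log2 fold changes of −0.06, 0.16 and 0.06. No gene of the list was higher at an unadjusted p under 0.05 or by DESeq2 (0 in each).

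**Figure D4:**
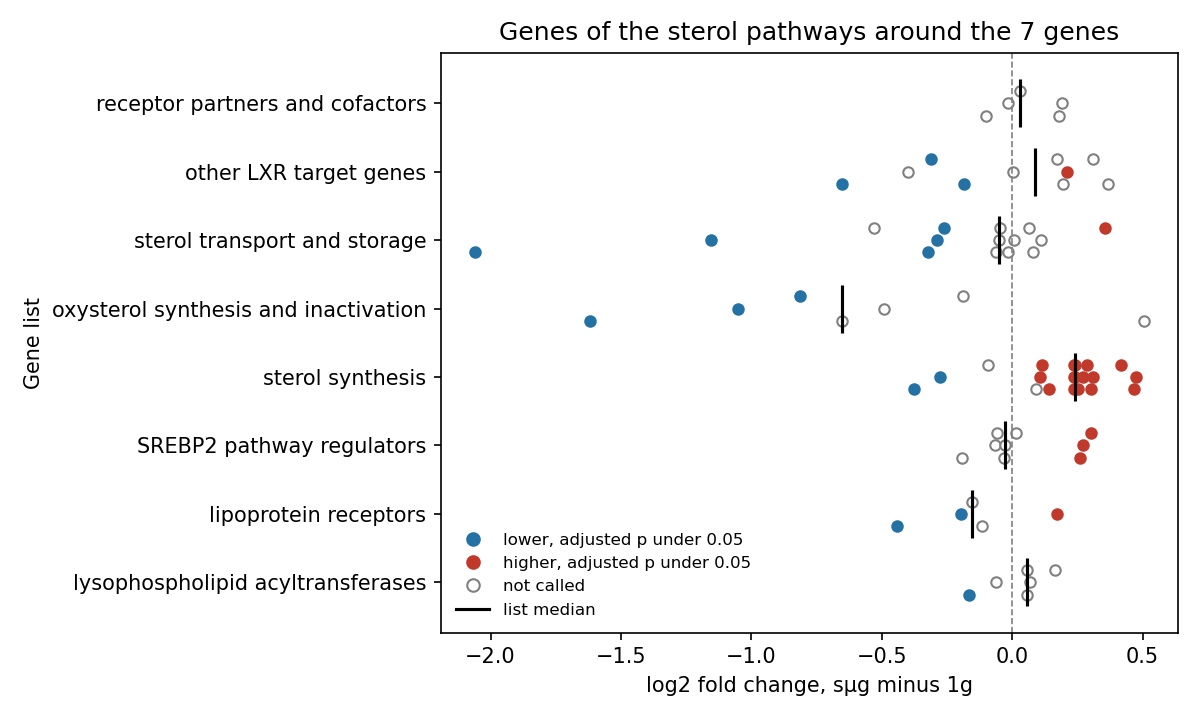
Log2 fold change, sµg minus 1g (x axis), of each tested gene in 8 lists of sterol genes (y axis), with blue circles for genes called lower, red for genes called higher and open circles for genes not called; a black bar marks each list's median. Of 20 genes of sterol synthesis 16 were higher, while NCEH1 lay furthest down, at −2.06.

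The genes whose level over the 6 libraries was most like that of *ABCA1* were *PLPP1*, *AXIN2* and *EZR*, with Pearson's r of log2(CPM + 0.5) rounding to 1.00, 0.999 and 0.999. This was a search over 9865 genes with a mean of at least 10 CPM, and 829 of them (8.40%) had r over 0.95. The libraries fall into only 2 conditions, so r includes the step between them, and it is given as a description. *PLPP1*, which encodes a lipid phosphatase, stood at 63.8 CPM in 1g and 40.0 in sµg, *AXIN2*, a feedback target of WNT signaling, at 90.3 and 47.8, and *EZR*, which links membrane proteins to actin, at 444 and 350.

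Marker genes of the cells and of other cell types were read in the same libraries. Calls among them stand beside 15.5% higher and 18.2% lower over all genes tested. All 11 pluripotency markers were expressed, with *POU5F1*, *SOX2* and *NANOG* at means of 2221, 161.1 and 112.6 TPM and log2 fold changes of 0.02, 0.01 and −0.08 that did not pass the test, and 0 of the 11 were higher and 4 lower (0 higher by DESeq2 and at an unadjusted p under 0.05). The most abundant of the list by CPM, *PODXL*, *LIN28A* and *DNMT3B*, fell, with log2 fold changes of −0.74, −0.37 and −0.50. Markers of trophectoderm and amnion were mostly lower in sµg. Of 12, 10 were tested, 9 were lower and 0 were higher (also 0 by DESeq2 and at an unadjusted p under 0.05), and *CGA* was at 0 in every library. Its most abundant members fell, *IGFBP3* from 72.6 to 42.9 CPM, *TFAP2A* from 18.6 to 2.7 CPM and *KRT7* from 15.1 to 9.81 CPM. For endoderm, from which the apolipoprotein-making liver comes, 2 of 6 tested markers were higher and 2 lower, with a summed level of 13.4 to 14.5 TPM in 1g and 17.4 to 22.5 TPM in sµg and *TTR* at 0 in every library. *AFP* rose from 3.28 to 5.63 CPM and *APOB* from 1.49 to 2.47 CPM, *CER1* stood at 0.952 and 1.15 CPM, and *APOA1*, which the list shares with that of sterol transport, was among those that fell. Of 5 tested mesoderm markers 1 was higher (*KDR*) and 2 were lower (*PDGFRA* and *TBX6*), of 7 neural markers 2 (*OTX2* and *FOXD3*) and 4 (among them *NES*), and of 5 fibroblast markers 2 (among them *THY1*) and 2 (*COL1A1* and *COL1A2*). The part of such cells in the *APOE* values was not tested. Macrophages, in which LXR and cholesterol efflux are best known, were at or near 0 by their defining markers, with *PTPRC* at 1 to 3 and *CD14* at 0 or 1 counts per library. Of the macrophage list, 2 of 10 were tested (*AIF1* and *ITGAM*) and 0 were called, by edgeR, by DESeq2 or at an unadjusted p under 0.05, and its summed level, mostly *AIF1*, was 19.8 to 20.3 TPM in 1g and 21.4 to 26.5 TPM in sµg.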

How the data were processed

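RNA of hPSCs in 1g and in sµg was sequenced from 6 libraries, 3 in each condition, prepared from poly(A) RNA with a kit that keeps the strand. Per the labels, the authors used STAR 2.7.7a for alignment, RSEM 1.3.3 for quantification and the build GRCh38.p13. The deposited tables hold the expected count per gene and transcript, which the authors did not normalize between libraries, and the TPM that the authors' RSEM run computed from it by effective length. The study ran more than one alignment setting, and the one behind these tables is not stated. Depth was higher in all 3 1g libraries than in the sµg ones, and mitochondrial genes took 5.23% to 5.33% of counts in 1g and 4.11% to 4.76% in sµg.

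Expected counts were rounded and fitted in R 4.3.3 with edgeR 4.0.16 (robust quasi-likelihood test, filterByExpr at its thresholds of 10 for the count and 15 for the total, TMM scaling, condition as the single factor) on all 16763 genes that passed, with Benjamini-Hochberg adjustment over all of them and calls at an adjusted p under 0.05. Transcripts were fitted alike. Standard errors follow from the F statistic. A call in a list is from this fit, and no test was made of a list. The biological coefficient of variation was 3.96%.

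Results were recomputed with DESeq2 1.42.0, with RLE in place of TMM, without the filter, with a filter of 10 counts per library, with effective gene length as an offset, with limma 3.58.1 on log2 TPM after adding 1 or 0.1, with a replicate block, with 1 library left out in turn and at an adjusted p under 0.01. Offsets for GC content (lowess, span 0.3), alone and with the block, were added after seeing the data. Scripts were tested on simulated data. Same-numbered libraries of the 2 conditions did not deviate together.

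The members and the gene lists were chosen with earlier results of these data known. From each list of sterol genes the 4 with the smallest adjusted p were named, from each marker list the 3 most abundant and those at 0, from *ABCA1*'s likeness search the top 3, and of transcripts those of at least 1 CPM were considered. *POU5F1*, *SOX2*, *NANOG*, *PTPRC*, *CD14*, *APOA1* and *CYP7A1* were named outside this rule, after their values were seen. Some genes of the lists are not reported here, and the lists' counts leave them out. Positions are those of GENCODE 44 on GRCh38. Promoter sequences are from RefSeq on GRCh38.p14.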

Additional observations from a re-analysis of the deposited data

How the results depend on the processing

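The fall of *ABCA1* and the lack of a call for *ABCG1*, *LPCAT3* and *NR1H3* held in all 17 alternatives. *APOE* was called in 3, *MYLIP* in 1 and *NR1H2* in 1. Each of these counts includes the fit without sµg replicate 3, a library singled out from the values of these same genes. Without sµg replicate 3, 4 members (57.1%, against 36.3% of all genes called) were lower: *ABCA1*, *APOE* (−0.45), *MYLIP* (−0.16, edgeR adjusted p = 0.0200) and *NR1H2* (−0.19, edgeR adjusted p = 0.00510). *NR1H3* changed sign without sµg replicate 3 (−0.042) and without 1g replicate 1 (−0.03). Limma on TPM called 2 members lower (28.6%), adding *APOE* (−0.28 with either pseudocount). Of all genes it called 17.6% with 1 added (8.7% lower) and 17.4% with 0.1 added (8.61% lower). With 1 library left out in turn, log2 fold changes ranged from −0.998 to −0.938 for *ABCA1*, −0.22 to −0.09 for *ABCG1*, −0.45 to −0.21 for *APOE*, −0.16 to −0.036 for *MYLIP*, −0.06 to −0.01 for *LPCAT3*, −0.19 to −0.10 for *NR1H2* and −0.042 to 0.089 for *NR1H3*, and 1 to 4 members were lower.

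Over all genes, 2591 were higher and 3057 lower; the effective length offset gave 1271 and 1844, limma 1495 and 1459 with 1 added and 1480 and 1444 with 0.1 added, and an adjusted p under 0.01 left 1587 higher. Leaving out 1 library gave 1879 to 2967 higher and 2464 to 3224 lower. The cause was not tested.

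Among genes outside the group, *RXRA* (0.0088) and *MBOAT7* (0.049) changed sign with the GC offset, or with the GC offset and replicate block (0.0093 and 0.051). Of the members' transcripts, DESeq2 called 3 lower and the replicate block 0, where 1 was called before. The shares of all transcripts called in those fits are not given here. With up to 4 mismatches, all 6 members with a promoter window held a DR4 match in place of 1. At that distance 72.5% of all windows held a match, in place of 18.6%.

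The replicate numbers carried no pairing in the data (correlations of same-numbered libraries −0.02, 0.04 and −0.01). The paper calls its control samples matched and does not state which libraries belong together. With the replicate block, *ABCA1* stood at −0.97 and 1 member was called lower.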
